A study of Mus musculus with 16 samples.

Results

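Peaks of histone H3 lysine 4 dimethylation (H3K4me2) whose centre lies on a transposable element were examined in 4 sorted populations of mouse medullary thymic epithelial cells (mTEC). A peak was included if the authors' annotation of its centre named a repeat of class LINE, SINE, LTR or DNA and if that centre lay more than 1000 bases from the nearest annotated transcription start site. Of 29470 merged peaks outside the mitochondrial chromosome, 2286 met both conditions, and 138 further element-centred peaks lay within 1000 bases and were left out. The rule uses annotation and distance only, and no measured value. The 2 peaks just inside the limit were a B3 element 1002 bases from Cwc22, with population means of 99.6, 87.4, 104 and 90.1 tags per 10000000 in mTEC-I to mTEC-IV, and an RLTR14-int element 1004 bases from Wdr89, with means of 230, 231, 296 and 211. The 2 just outside were a MER34A element 964 bases from Slc28a3, with means of 14.0, 27.4, 96.1 and 49.3, and an MIR element 967 bases from Itgb1, with means of 278, 242, 211 and 244.

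The mark was measured by chromatin immunoprecipitation and sequencing in thymus cells of C57BL/6 mice. All 4 populations were gated as CD45-negative and Epcam-positive: mTEC-I as Itgb4-positive with little MHC class II, mTEC-II as MHC class II high, mTEC-III as Ly6D-positive, and mTEC-IV as L1cam-positive and Itgb4-negative, again with little MHC class II. Each population had 2 H3K4me2 libraries, and 8 whole-cell extract samples were not analysed here. The labels give no age, and do not say whether the 2 libraries of each population were made from different mice. The p-values therefore reflect no more than the spread among these libraries, which may be technical.

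H3K4me2 marks both promoters and enhancers, active or poised, and away from start sites it is widely read as a sign of regulatory DNA. Transposable elements make up a large part of the mouse genome. LINE and LTR elements copied themselves through RNA and their own reverse transcriptase, the short SINE elements borrowed the LINE machinery, and DNA transposons moved by excision. Most copies are old and decayed, young ones are held silent by DNA methylation, H3K9 methylation and KRAB zinc finger proteins, and some have been taken over as enhancers. Medullary thymic epithelium shows developing T cells a wide range of tissue-restricted antigens, and its subsets include mature cells that express Aire and MHC class II, keratinised cells and tuft-like cells.

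Values are tags in a merged peak per 10000000 tags of the library, so wide peaks tend to read higher. The median level of repeat peaks is given per kb of peak. The split by mean level and the highest levels named below are not corrected for width. The libraries held 1702100 to 15412100 tags, of which 31.9% to 35.4% lay in merged peaks. The second mTEC-I library was the shallowest: 1 tag there equalled 5.88 on the printed scale, a count of 0 allowed up to 17.6, and 255 of the 2286 repeat peaks (11.2%) were at 0, against 1 to 35 peaks in each of the other 7 libraries. These limits cover counting error only. Summed over the peaks of a gene, the gate genes followed the labels for Itgb4 (mTEC-I at 285 and 330, the rest at 216 to 242), Ly6d (mTEC-III at 315 and 351, the rest at 69.2 to 114) and L1cam (mTEC-IV at 181 and 200, the rest at 42.9 to 82.3). The MHC class II genes did not follow the gate of mTEC-I, sorted for little of the protein: H2-Aa was highest there (457 and 432, against 406 and 398 in mTEC-II, a log2 change of 0.45 with adjusted p = 5e-04), and H2-Ab1 read 586 and 543 against 607 and 649 in mTEC-II. Both were lowest in mTEC-IV, at 241 and 242 for H2-Aa and 397 and 367 for H2-Ab1, and Epcam read 826 to 1141 over the 8 libraries. Ptprc, which encodes the CD45 that was sorted against, read 265 and 269 in mTEC-IV and 30.03 to 48.9 in the other 6 libraries. Of 4 endothelial genes, 2 (Cdh5 and Tek) were higher in mTEC-IV and the summed level was 797 to 807 there against 279 to 409 elsewhere. All 3 measured genes of 5 fibroblast markers were higher in mTEC-I, with a summed level of 465 to 585 against 186 to 294, and Col1a2 and Col3a1 had no peak. Of 6 antigen-presenting haematopoietic markers 4 had a peak, and 2 of these (Itgax and Cd68) were higher in mTEC-III, where the summed level was 170 to 185 against 80.5 to 173. Flt3 of the same list was higher in mTEC-II (log2 change 1.06) and mTEC-IV (0.68), and Csf1r was called in no population. Of 5 thymic epithelium markers, Aire had no peak. Foxn1 read 175 and 185 in mTEC-IV against 413 to 609 elsewhere, and Krt5 33.0 and 26.3 against 85.5 to 413. Krt8 was highest in mTEC-IV, at 1108 and 1198 against 499 to 608. Of 8 thymocyte markers, Cd3e, Cd3g, Cd4, Cd8a, Lck and Rag1 had no peak, Themis was higher in mTEC-IV (122 and 134 against 5.88 to 81.4), and the list's summed level was 858 to 1068 in all 8 libraries. The part of such cells in the results below was not tested, and in these bulk samples fewer cells with the mark and less of the mark per cell cannot be told apart.

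The 2286 repeat peaks comprised 876 on SINEs, 696 on LTR elements, 551 on LINEs and 163 on DNA transposons, from 28 families and 398 named elements. L1, the LINE family that is still active in mice, was the largest with 476 peaks. Among SINEs, the B1 family (listed as Alu) had 280, B4 had 245, B2 had 177, the ancient mammalian MIR had 132 and ID had 38. The LTR peaks lay on the non-autonomous MaLR family (276), on ERVK (254), which includes the intracisternal A particles, on ERV1 (82) and on ERVL (79). MER1_type (103) and MER2_type (31) led the DNA transposons, L2 gave 57 LINE peaks, and 15 smaller families shared 56. The peaks were nearest to 1989 genes, lay at a median of 21224.5 bases from the start site, and were split almost evenly between introns (50.8%) and intergenic DNA (49.2%). SINE peaks were mostly intronic (60.0%) and LTR peaks mostly intergenic (61.6%). The median repeat peak was 1574 bases wide, with 23.3 tags per 10000000 per kb, against 1709 bases and 28.5 for the 15853 peaks away from start sites without such an element. The annotation is read at the peak centre, so a wide peak centred on an element need not carry its signal there, and 193 of the repeat peaks (8.44%), 129 of them on SINEs, were wide enough to reach the nearest start site.

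Repeat peaks made up 12.6% of the 18139 peaks away from start sites. Their share was 15.6% of the peaks listed by the authors in 1 population, 11.0% in 2, 9.51% in 3 and 7.43% in all 4. Grouped by the population with the highest mean, the share was 7.67% for mTEC-I, 14.4% for mTEC-II, 13.3% for mTEC-III and 13.6% for mTEC-IV. Repeat peaks were thus mostly listed in a single population: 1425 of 2286 (62.3%) were, against 48.7% of the other peaks away from start sites. Of these, 608 were listed for mTEC-IV alone, 603 for mTEC-II, 213 for mTEC-III and 1 for mTEC-I. The mTEC-I list is short, with 7036 peaks against 19321 to 23949 in the other lists. With an overlap of at least 1 base, 150 repeat peaks (6.56%) met a peak of the mTEC-I list, 1410 (61.7%) one of mTEC-II, 917 (40.1%) one of mTEC-III and 1344 (58.8%) one of mTEC-IV. In the authors' deposited tables, listed peaks that overlapped repeat peaks had a median fold over control of 13.0 in mTEC-II, 14.2 in mTEC-III and 13.4 in mTEC-IV, below the 16.0, 17.9 and 16.4 of the whole lists, and of 19.96 in mTEC-I against 19.8.

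The mark at repeat peaks was most often raised in mTEC-IV and most often reduced in mTEC-I. Every merged peak overlapped at least 1 of the authors' lists. Only 1 repeat peak was listed for mTEC-I alone, against 603 for mTEC-II, 213 for mTEC-III and 608 for mTEC-IV. Peaks marked in mTEC-I alone could thus hardly enter the set. The members listed for mTEC-II, mTEC-III or mTEC-IV alone entered through their signal in that population. How far either shapes the counts was not tested. By limma, each population was set against the mean of the other 3 on log2(value + 1), with p-values adjusted over 29469 tested peaks, and all 2286 repeat peaks passed the filter on low values. In mTEC-IV, 815 repeat peaks were higher and 462 lower at an adjusted p under 0.05, or 35.7% and 20.2%, where 23.5% and 14.3% of all merged peaks were called. In mTEC-I, 201 were higher and 913 lower (8.79% and 39.9%, background 14.7% and 23.1%). The numbers in mTEC-II were 405 higher and 178 lower (17.7% and 7.79%, background 10.2% and 7.23%). For mTEC-III, 375 were higher and 273 lower (16.4% and 11.9%, background 11.3% and 14.2%). The 4 populations differed at 76.2% of the repeat peaks by the F test, against 58.2% of all peaks. The 4 contrasts share their libraries, so a high value in 1 population lowers the change of the others.

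Peaks away from start sites without a transposable element at the centre lay between all merged peaks and the repeat peaks in each of these shares except the lower calls of mTEC-II and mTEC-III. They were called higher and lower in 13.3% and 31.2% of cases for mTEC-I, 14.0% and 7.82% across mTEC-II, 12.9% and 16.1% across mTEC-III, and 31.4% and 17.8% across mTEC-IV, and 70.0% differed by the F test. The difference between the 2 kinds of peak has no test of its own. Both libraries lay above all 6 of the other populations at 5.60% of repeat peaks for mTEC-I, 18.3% for mTEC-II, 13.1% for mTEC-III and 34.5% for mTEC-IV. The same measure gave 12.3%, 10.2%, 11.1% and 22.3% of all merged peaks, and 9.48%, 14.1%, 10.7% and 29.8% of the others away from start sites. Split by mean level, peaks between 80 and 160 tags per 10000000 were lower in mTEC-I in 39.5% of repeat peaks and 24.1% of the others. Between 20 and 40 tags these shares were 39.5% and 37.2%, and below 20 tags 52.3% and 49.0%. Higher calls in mTEC-IV were no more frequent among repeat peaks at low levels. Below 20 tags they covered 59.4% of repeat peaks and 60.3% of the others, and between 20 and 40 tags 32.2% and 34.1%. In each group above 40 tags the repeat peaks had the larger share, with 31.4% against 26.4% between 40 and 80 tags and 22.7% against 21.2% above 160. Above 160 tags, 31.5% of repeat peaks were higher in mTEC-III against 19.5%. Median log2 changes of the repeat peaks were -0.45, 0.06, -0.03 and 0.19 in mTEC-I to mTEC-IV, beside -0.01, -0.05, 0.00 and 0.04 for all peaks and -0.17, 0.03, -0.07 and 0.13 for the others away from start sites.

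The counts for mTEC-II and mTEC-III fell when either library of that population was left out, among repeat peaks and among all merged peaks. In such fits the lone library is assumed to vary like the other populations, and the cause of the lower counts was not tested. Leaving out the shallow mTEC-I library raised the mTEC-II counts to 657 higher and 420 lower and the count of lower peaks in mTEC-III to 540, and gave 9.06% higher and 39.8% lower in mTEC-I (all peaks 14.0% and 22.8%). Without the first mTEC-I library, 715 were higher and 412 lower in mTEC-II, and 581 higher and 526 lower in mTEC-III. Fewer peaks were lower in mTEC-II without an mTEC-IV library (111 or 104), and fewer were lower in mTEC-III without an mTEC-II (171 or 160) or an mTEC-IV library (175 or 168). In mTEC-IV, 564 to 971 were higher over the 8 libraries left out in turn, and 286 were lower without its second library, and 132 were higher in mTEC-I without the first mTEC-II library.

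All 4 classes had more peaks lower than higher in mTEC-I and more higher than lower in mTEC-IV, and LINEs had the widest gap. All merged peaks had the same directions, with 14.7% higher and 23.1% lower in mTEC-I and 23.5% and 14.3% in mTEC-IV. So did the other peaks away from start sites, with 13.3% and 31.2% in mTEC-I and 31.4% and 17.8% in mTEC-IV. Of 551 LINE peaks, 248 (45.0%) were higher and 106 lower in mTEC-IV, and 248 (45.0%) were lower and 40 higher in mTEC-I. DNA transposons followed in mTEC-IV with 64 of 163 higher (39.3%), then SINEs with 282 of 876 (32.2%) and LTR elements with 221 of 696 (31.8%). The SINE and LTR shares were near the 31.4% of the other peaks away from start sites. The LTR count fell to 141 or 140 without the first or second mTEC-IV library, and without the second the lower calls in mTEC-IV fell from 106 to 65 LINE, 182 to 116 SINE, 138 to 90 LTR and 36 to 15 DNA transposon peaks. Lower in mTEC-I were 286 LTR peaks (41.1%), 61 DNA transposon peaks (37.4%) and 318 SINE peaks (36.3%). In mTEC-II, LTR elements had 134 higher against 37 lower (19.3% and 5.32%), LINEs 103 against 42, SINEs 141 against 85 and DNA transposons 27 against 14. Of all merged peaks 10.2% were higher and 7.23% lower there, and of the others away from start sites 14.0% and 7.82%. In mTEC-III, SINEs had 166 higher against 94 lower (18.9% and 10.7%), LTR elements 113 against 80 and DNA transposons 22 against 19, and LINEs had more lower than higher (80 against 74). All merged peaks had 11.3% higher and 14.2% lower there, and the others away from start sites 12.9% and 16.1%. The near even splits in mTEC-III turned with the settings. Higher calls made up 48.1% of the LINE calls there but were the majority without an mTEC-II library, an mTEC-IV library or the first mTEC-III library. They made up 53.7% of the DNA transposon calls but 48.1% under DESeq2, 45.8% under edgeR and 41.4% with a pseudocount of 5. Higher DNA transposon calls were also the minority without the second mTEC-III or either mTEC-I library. Without the shallow mTEC-I library, 43.2% of LINE, 40.1% of LTR, 39.9% of DNA transposon and 37.3% of SINE peaks were lower in mTEC-I.

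**Figure D1:**
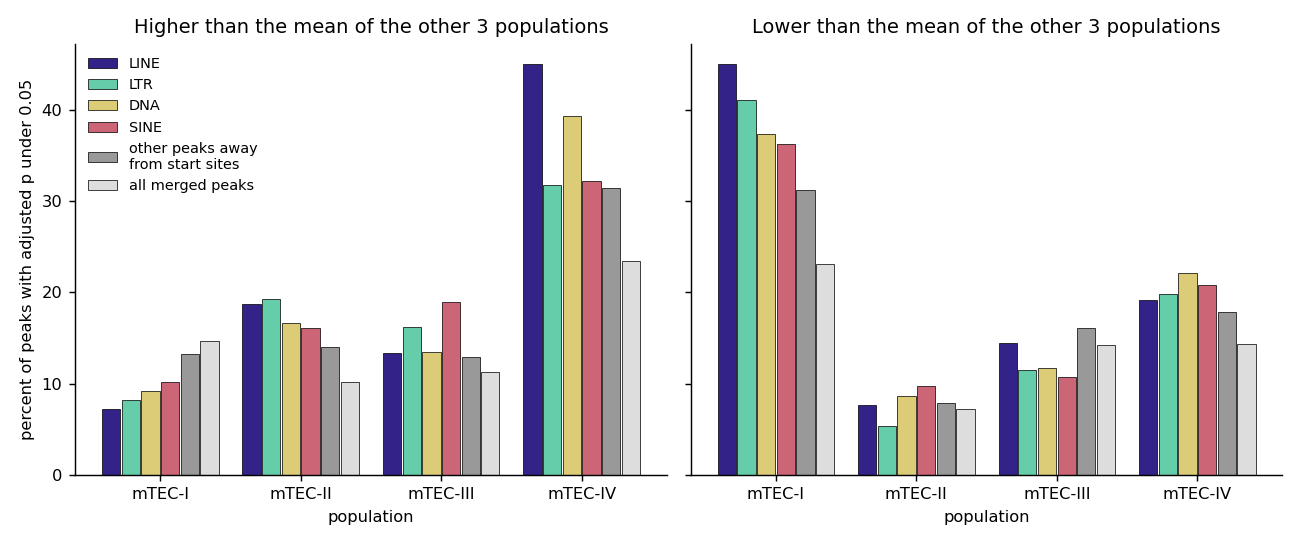
Percent of peaks called higher (adjusted p under 0.05, limma) and percent called lower in each population against the mean of the other 3, for the 4 repeat classes, beside all merged peaks and peaks away from start sites without a transposable element. LINE peaks reach 45.0% higher in mTEC-IV and 45.0% lower in mTEC-I.

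Of all repeat peaks, 35.7% were higher in mTEC-IV and 39.9% lower in mTEC-I, and of all merged peaks 23.5% and 23.1%. Among the 13 families with at least 20 peaks, L1 carried the LINE pattern. Of its 476 peaks, 219 were higher in mTEC-IV (46.0%) and 218 lower in mTEC-I (45.8%), with median log2 changes of 0.50 and -0.77. L2, an ancient LINE family, had 24 of 57 peaks in each of these sets (42.1%). The MaLR family had 57 of 276 peaks higher and 12 lower in mTEC-II (20.7% and 4.35%), and 98 higher in mTEC-IV. The mTEC-IV count is near the share of all repeat peaks. In mTEC-II, 17.7% of all repeat peaks were higher and 7.79% lower, and 10.2% and 7.23% of all merged peaks. ERV1, a class of gammaretrovirus-like elements, had 20 of 82 peaks higher and 4 lower in mTEC-II (24.4% and 4.88%). In mTEC-I, 13 ERV1 peaks were higher and 31 lower (15.9% and 37.8%), and in mTEC-IV 21 were higher (25.6%) and 18 lower, where the shares called higher of all merged peaks were 14.7% and 23.5%. Both mTEC-III libraries lay above all 6 others at 24.1% of ERVL peaks, where 11.1% of all peaks did so, and 17 of the 79 passed the test as higher and 7 as lower there. The B1 family had 56 of 280 peaks higher and 23 lower in mTEC-III, and MIR had 28 of 132 higher and 22 lower (21.2% and 16.7%, where 11.3% and 14.2% of all peaks were called). Of all repeat peaks, 16.4% were higher and 11.9% lower in mTEC-III. The median fall in mTEC-I ran from -0.04 for ID to -0.85 for MER2_type elements.

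**Figure D2:**
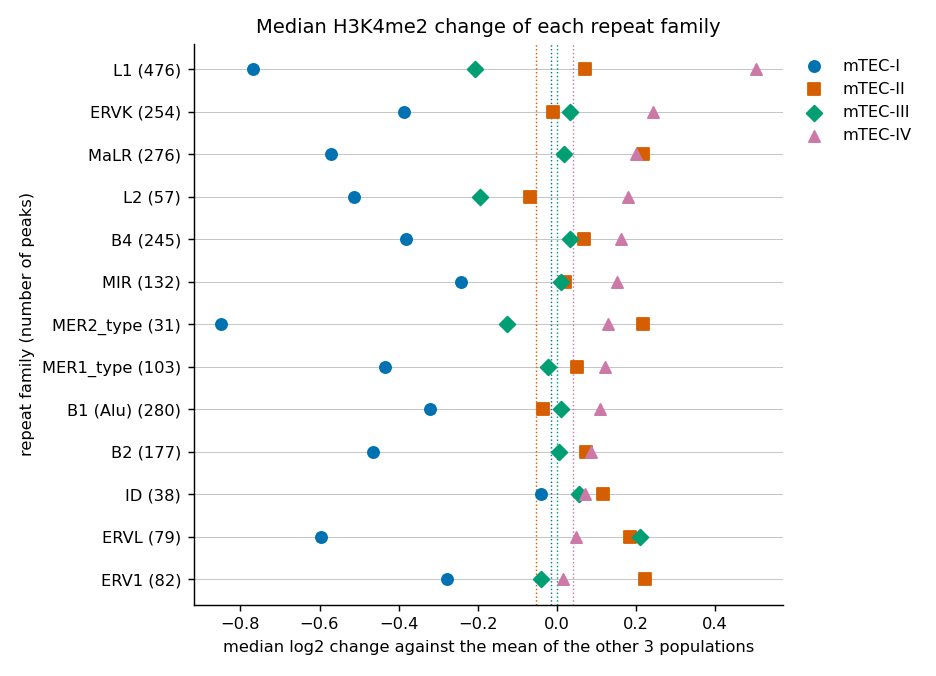
Median log2 change of each repeat family with at least 20 peaks in each population against the mean of the other 3. L1 has the medians -0.77 in mTEC-I and 0.50 in mTEC-IV, and ID lies near 0 in mTEC-I at -0.04.

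Finer groups were formed by the start of the element's name. Of all repeat peaks, 35.7% were higher and 20.2% lower in mTEC-IV, 39.9% lower in mTEC-I, and 17.7% higher and 7.79% lower in mTEC-II. Of all merged peaks, these shares were 23.5%, 14.3%, 23.1%, 10.2% and 7.23%. The old L1M elements without L1Md (244 peaks) had 124 higher and 35 lower in mTEC-IV (50.8% and 14.3%) and 121 lower in mTEC-I (49.6%), with medians of 0.62 and -0.84. The rodent Lx elements (133 peaks) had 53 higher and 34 lower in mTEC-IV (39.8% and 25.6%) and 32 higher in mTEC-II (24.1%). L1Md, the young mouse L1, gave 29 peaks, of which 15 were higher in mTEC-IV. The ORR1 members of MaLR (84 peaks) had 37 higher in mTEC-IV (44.0%) and 46 lower in mTEC-I (54.8%). Their relatives MTA to MTE (119 peaks) had 42 higher in mTEC-IV (35.3%), near the share of all repeat peaks. In mTEC-II they had 25 higher against 4 lower. RMER elements (122 peaks) had 35 higher and 7 lower in mTEC-II (28.7% and 5.74%).

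Intracisternal A particles (IAP), young LTR elements that can still transpose, gave 26 peaks and the 4 populations differed at 50.0% of them, below the 58.2% of all peaks. None of the 26 was higher in mTEC-I or mTEC-II, 11 were lower in mTEC-I, and 7 were higher in mTEC-III and 7 in mTEC-IV. Of all merged peaks, 14.7%, 10.2%, 11.3% and 23.5% were called higher in mTEC-I to mTEC-IV, and 23.1% lower in mTEC-I. The mTEC-IV count of IAP peaks is near that share. The IAP peaks were intergenic in 84.6% of cases. MT2 gave 12 peaks, of which 6 were higher in mTEC-IV. No peak was centred on a BGLII element. Among single elements, chosen after their values were seen, all 14 L1M4 peaks differed by the F test and 12 were higher in mTEC-IV with none lower. Of 30 RLTRETN_Mm peaks 12 differed, 7 of 21 MTC peaks were higher in mTEC-II, and none of 38 MTD peaks was higher in mTEC-I while 17 were lower. How reads shared by near-identical copies were handled was not given in the sources used here, so values on the young L1Md, IAP, RLTRETN, B1_Mm and B2_Mm copies are uncertain.

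Summed over all members, repeat peaks held 3.94% and 3.93% of the tags in merged peaks in the 2 mTEC-I libraries, 4.77% in both of mTEC-II, 4.66% and 4.65% in those of mTEC-III, and 5.17% and 5.10% in those of mTEC-IV. The populations did not overlap, with mTEC-I lowest and mTEC-IV highest. As given above, 1 member was listed for mTEC-I alone and 608 for mTEC-IV alone, and the effect of this on the shares was not tested. LINE peaks held 0.666% and 0.668% in mTEC-I, 0.879% in both mTEC-II libraries, 0.819% in both of mTEC-III, and 1.04% and 1.03% in mTEC-IV. LTR peaks held 0.963% and 0.948%, 1.25% and 1.24%, 1.19% and 1.18%, and 1.31% and 1.30% in the same order. Each of these classes had the order mTEC-I, mTEC-III, mTEC-II and mTEC-IV without overlap. SINE peaks held 2.03% and 2.01% in mTEC-I, 2.30% in both mTEC-II libraries, 2.34% and 2.33% in those of mTEC-III, and 2.44% and 2.41% in those of mTEC-IV. DNA transposon peaks held 0.280% and 0.30%, 0.344% in both mTEC-II libraries, 0.318% and 0.324%, and 0.371% and 0.357%. The SINE sums rest largely on wide peaks that reach a start site: without those the means were 0.907%, 1.21%, 1.11% and 1.34% in mTEC-I to mTEC-IV, which puts mTEC-II above mTEC-III. As sums over members these shares have no test.

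**Figure D3:**
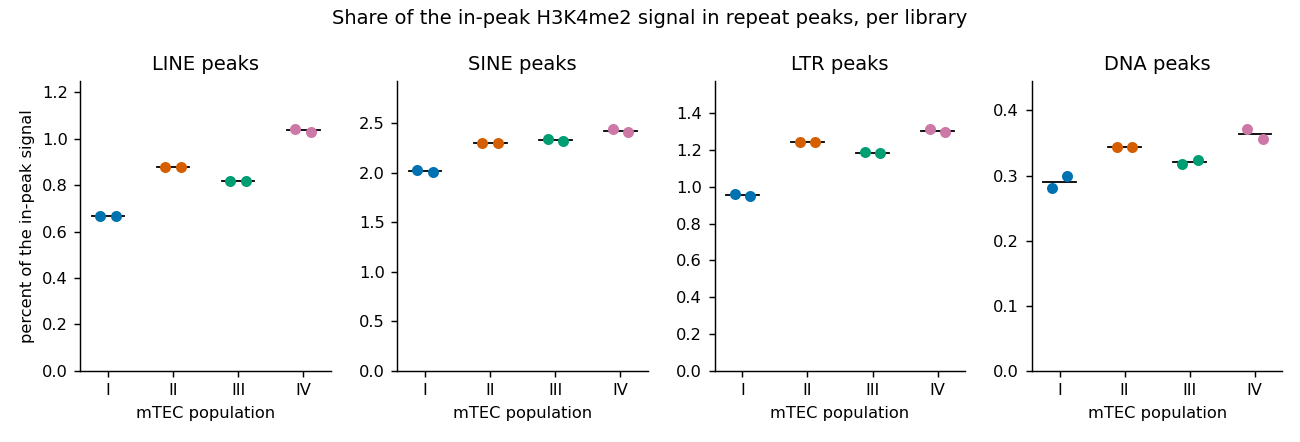
Share of all tags in merged peaks that lay in repeat peaks of each class, in percent, with 1 point for each of the 8 libraries. For LINE peaks the mTEC-IV libraries sit at 1.03% and 1.04% and the mTEC-I libraries at 0.666% and 0.668%.

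Some repeat peaks met a rule for a high level in 1 population and a low level in the other 3. Peaks of mTEC-I alone could hardly appear here, as 1 member was listed for that population alone. The 608 members listed for mTEC-IV alone entered through their signal there. They were 26.6% of the members, against 20.1% of the other peaks away from start sites. How far this shapes the mTEC-IV count was not tested. A low mean need not mean no mark, as a 0 in the shallow mTEC-I library allows up to 17.6. At a mean of at least 30 tags per 10000000 in 1 population and under 10 in each of the other 3, limits chosen after the data were seen and not tested, 194 repeat peaks (8.49%) were found for mTEC-IV, 13 for mTEC-III, 7 for mTEC-II and 0 for mTEC-I. Of all merged peaks 3.52% met this rule for mTEC-IV, 0.180% for mTEC-III, 0.156% for mTEC-II and 0.00% for mTEC-I, and of the other peaks away from start sites 5.22% did for mTEC-IV. Those of mTEC-IV included 79 LINE peaks (14.3%) and 23 DNA transposon peaks (14.1%), against 60 SINE peaks (6.85%) and 32 LTR peaks (4.60%). The share was 17.6% for L1M, 17.5% for L2 and 15.5% for ORR1, and 2.36% for ERVK, 2.44% for ERV1 and 0.00% for IAP. Without the shallow mTEC-I library, 189 repeat peaks met the rule for mTEC-IV, 18 for mTEC-III and 10 for mTEC-II.

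The strongest rises in mTEC-IV were of this kind. Per library, an L1_Mus3 element 303760 bases from Slitrk6, a neuronal membrane protein gene (chromosome 14, 110849372 to 110851850, mm9), read 4.64 and 0 across mTEC-I, 5.19 and 5.55 across mTEC-II, 2.52 and 2.36 across mTEC-III, and 115 and 102 across mTEC-IV. Both mTEC-IV libraries stood far above the other 6, a log2 change of 4.88 ± 0.63 (SE, adjusted p = 1e-04). A B4A element in intron 2 of Kcnab2, which encodes a potassium channel beta subunit (chromosome 4, 151792109 to 151794835), read 119 and 130 in mTEC-IV and 0 to 7.79 in the other libraries (4.87 ± 0.56, adjusted p = 4.5e-05). The ID4_ element near Pak1ip1 (chromosome 13, 41078376 to 41080622) had the highest change, 5.03 ± 0.77, with 81.9 and 74.7 against 0 to 6.31. An L1MA6 element upstream of Pik3cg, a phosphoinositide 3-kinase of immune cells (chromosome 12, 32905676 to 32906936), read 62.1 and 63.3 against 0 to 5.92, and a B2_Mm2 element near Thnsl2 (chromosome 6, 71120133 to 71122203) read 134 and 136 against 1.89 to 11.8. None of these 5 peaks reached the start site of its gene.

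By p-value, the first LINE peak in mTEC-IV was an Lx7 element in intron 7 of Lrmp, an endoplasmic reticulum membrane protein gene of lymphoid and taste cells (chromosome 6, 145095249 to 145106771). It read 24.8 and 41.1 across mTEC-I, 44.8 and 43.3 across mTEC-II, 34.7 and 40.6 across mTEC-III, and 790 and 735 across mTEC-IV. That is a log2 change of 4.31 ± 0.18 (adjusted p = 5.3e-08) with no overlap. The first LTR peak was an RMER5 element whose nearest listed gene is Mir691 (chromosome 16, 74128605 to 74136065), with 418 and 403 in mTEC-IV against 35.2 to 71.7 (3.01 ± 0.14, adjusted p = 7.5e-08). A DNA transposon, URR1B, in intron 1 of the kinase gene Nlk (chromosome 11, 78501947 to 78512168), read 582 and 537 against 135 to 250, in a peak that also covers the start site. Lower in mTEC-IV were an L1MC4a element in intron 5 of Wscd1 (0 and 5.97 against 15.8 to 64.6, log2 change -3.78 ± 0.57), an RMER10A element near the integrin gene Itga1 (0 and 7.17 against 17.6 to 51.3, -3.45 ± 0.61) and an LTR40c element near Raly (1.10 and 4.78 against 20.1 to 39.6, -3.16 ± 0.42).

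**Figure D4:**
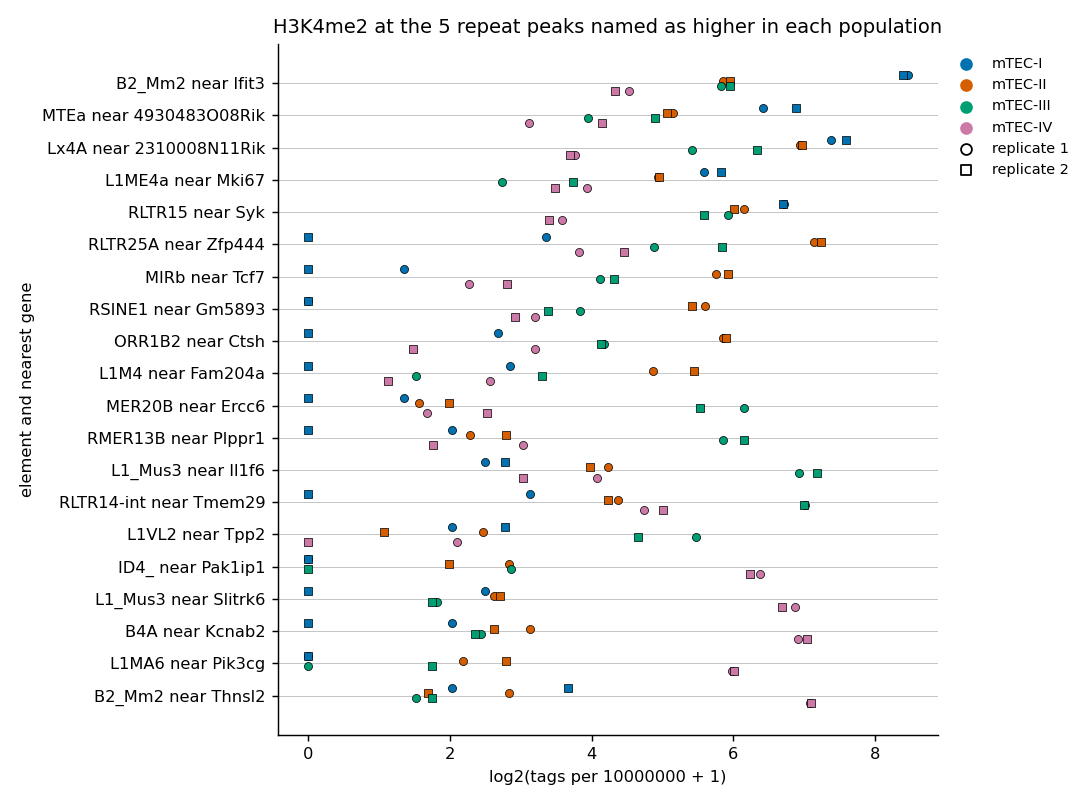
Tags per 10000000 (log axis of value + 1) in each of the 8 libraries for the named repeat peaks with the highest rise in each population. The mTEC-IV peaks near Slitrk6, Kcnab2, Pak1ip1, Pik3cg and Thnsl2 lie between 62.1 and 136 in mTEC-IV and at 11.8 or less in the other libraries.

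In mTEC-I, the largest rise was at a B2_Mm2 element in the single intron of Ifit3, an interferon-induced gene (chromosome 19, 34657099 to 34661281). The values were 353 and 335 across mTEC-I, 57.1 and 60.7 across mTEC-II, 55.5 and 61.2 across mTEC-III, and 21.99 and 19.1 across mTEC-IV, a log2 change of 3.02 ± 0.15 (adjusted p = 2.7e-07). The peak also covers the start site, and Ifit genes have near copies. An L1ME4a element 223669 bases from Mki67, a gene of dividing cells (chromosome 7, 143131189 to 143132273), read 47.2 and 55.8 across mTEC-I, 29.5 and 29.99 across mTEC-II, 5.68 and 12.4 across mTEC-III, and 14.3 and 10.2 across mTEC-IV (1.75 ± 0.34, adjusted p = 0.00198). An RLTR15 element in intron 9 of Syk, a kinase of immune receptor signalling (chromosome 13, 52730858 to 52732778), read 104 and 103 in mTEC-I, against 70.4 and 63.3 in mTEC-II and 11.0 and 9.56 in mTEC-IV.

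An Lx4A element near 2310008N11Rik (chromosome 8, 27776697 to 27779555) had the same order, from 166 and 191 in mTEC-I over 122 and 124 in mTEC-II and 41.6 and 79.5 in mTEC-III to 12.7 and 11.9 in mTEC-IV. An MTEa element near 4930483O08Rik read 84.3 and 118 in mTEC-I against 7.70 to 34.4. In both, the mTEC-I libraries stood above all others, with log2 changes of 1.96 ± 0.22 and 2.26 ± 0.34. The 3 largest falls in mTEC-I were at an MIRb element 4790 bases from Klk14, a kallikrein protease gene (3.10 and 0 against 22.4 to 92.4), an MIR3 element assigned to Gm5136 (7.74 and 0 against 41.1 to 80.3) and an MTEa element in intron 2 of Twistnb (7.74 and 0 against 43.0 to 83.0). Their log2 changes were -4.74 ± 0.44, -4.26 ± 0.59 and -4.24 ± 0.59, and the 0 of the shallow library allows up to 17.6.

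In mTEC-II, the 5 largest rises were at peaks that read 56.5 or less in every other library. An RLTR25A element 4285 bases upstream of Zfp444, a zinc finger gene (chromosome 7, 6118082 to 6121578), read 9.29 and 0 across mTEC-I, 140 and 150 across mTEC-II, 28.4 and 56.5 across mTEC-III, and 13.2 and 20.9 across mTEC-IV (3.46 ± 0.65, adjusted p = 0.00493). An MIRb element 10660 bases upstream of Tcf7, a transcription factor gene of T cells (chromosome 11, 52106451 to 52107901), read 52.9 and 59.6 in mTEC-II against 0 to 18.8. An ORR1B2 element near Ctsh, which encodes the lysosomal protease cathepsin H (chromosome 9, 89926319 to 89928355), read 57.1 and 58.5 against 0 to 17.0. At all 3 the mTEC-II libraries exceeded the other 6. RSINE1 near Gm5893 (47.4 and 41.8 against 0 to 13.2) and L1M4 near Fam204a (28.2 and 42.6 against 0 to 8.83) completed the 5. Without either mTEC-II library the 5 log2 changes stayed at 2.97 to 3.55, but none of the 5 passed the test (adjusted p = 0.0648 to 0.256), and the call at Fam204a was also lost without the first mTEC-III library (0.0566).

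The first peak of each class by p-value held in mTEC-II in every setting run. An L1M2 element in intron 1 of H2-Eb2, an MHC class II beta chain gene (chromosome 17, 34461773 to 34468043), read 51.1 and 41.1 across mTEC-I, 315 and 349 across mTEC-II, 112 and 132 across mTEC-III, and 97.3 and 112 across mTEC-IV. The log2 change was 1.98 ± 0.13 (adjusted p = 4.3e-05), with no overlap, and the peak reaches the start site. RCHARR1, a DNA transposon near S100a16, a calcium-binding protein gene (chromosome 3, 90364976 to 90368860), read 181 and 211 in mTEC-II, 73.5 and 79.3 in mTEC-I, and 13.1 to 40.04 in the remaining 4 (2.45 ± 0.21). An ORR1B2 element near Maea (268 and 272 against 64.6 to 106) and a B4A element in an intron of Gm12216 (202 and 204 against 67.5 to 85.4) gave 1.78 ± 0.14 and 1.42 ± 0.13. Lower in mTEC-II were B1_Mur1 near 9130024F11Rik, RMER15 near Aadac and ID_B1 near Sec22c, with log2 changes of -2.52, -1.91 and -1.83. Without either mTEC-II library these 3 changes stayed at -2.65 to -1.72, but the calls were lost (adjusted p = 0.0763 to 0.159).

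In mTEC-III, an L1_Mus3 element in intron 4 of Il1f6, which encodes the epidermal cytokine IL-36 alpha (chromosome 2, 24070990 to 24074254), read 4.64 and 5.88 across mTEC-I, 17.8 and 14.8 across mTEC-II, 121 and 144 across mTEC-III, and 15.9 and 7.17 across mTEC-IV. The change was 3.62 ± 0.35 on the log2 scale (adjusted p = 4.7e-05), and the mTEC-III libraries stood apart. An RMER13B element near Plppr1 (chromosome 4, 48911410 to 48913108) read 56.8 and 70.1 against 0 to 7.15 (4.02 ± 0.64). The largest change was at a MER20B element near Ercc6, a DNA repair gene (70.0 and 45.3 against 0 to 4.78, 4.32 ± 0.64), whose adjusted p rose to 0.0532 without the first mTEC-III library. The same held for RLTR14-int near Tmem29 on chromosome X (128 and 127 against 0 to 31.1, adjusted p = 0.0537), and L1VL2 in an intron of Tpp2 (43.5 and 24.1 against 0 to 5.88) was lost without either mTEC-III library (adjusted p = 0.16 and 0.0625).

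By p-value, the first mTEC-III peak of each class lay in an intron of Skint2, Tprg, Ankrd35 or Gltp. An Lx7 element in intron 2 of Skint2, of a gene family expressed in thymus and skin whose copies resemble each other (chromosome 4, 112285275 to 112294351), read 577 and 564 in mTEC-III, 341 to 379 in mTEC-I and mTEC-II, and 116 and 113 in mTEC-IV (1.22 ± 0.07, adjusted p = 4.7e-06). Charlie8, a DNA transposon in intron 1 of Tprg, a p63-regulated gene (chromosome 16, 25286770 to 25291084), read 163 and 152 against 13.8 to 25.6 (2.97 ± 0.23). B1_Mus1 in intron 1 of Ankrd35 (357 and 358 against 95.7 to 182) and MT2B in intron 1 of Gltp, a glycolipid transfer protein gene (519 and 485 against 193 to 258), gave 1.40 ± 0.11 and 1.15 ± 0.08. All 4 peaks reach the start site of their gene. Lower in mTEC-III were MER5B near Ghitm, B1F in an intron of Ackr4 and Charlie8 near Nmur1, with log2 changes of -1.92, -1.91 and -1.87. The B1F peak in Ackr4, a chemokine scavenger gene, read 42.9 and 25.9 in mTEC-III, 46.7 and 54.1 in mTEC-II, 98.3 and 94.0 in mTEC-I, and 429 and 442 in mTEC-IV.

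The repeat peaks with the highest mean level of each class were broad ones that reach a start site. L1_Mus2 near Skint4 read 205 and 270 across mTEC-I, 623 and 648 across mTEC-II, 1000.5 and 1105 across mTEC-III, and 349 and 312 across mTEC-IV, highest in mTEC-III (1.52 ± 0.10). B1F in intron 2 of Birc2, an inhibitor of apoptosis gene, ran from 990 and 1119 in mTEC-I down to 550 and 492 in mTEC-IV. RLTR10C near Pisd-ps3 was highest in mTEC-III (0.48 ± 0.05), and MER20B in intron 1 of the small GTPase gene Arf1 was lowest in mTEC-IV (-0.62 ± 0.06).

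Tuft cells are chemosensory epithelial cells that use a taste-like signalling chain from Gnat3 over Plcb2 and calcium release to Trpm5, make eicosanoids, and depend on Pou2f3. Of 30 tuft cell genes, 10 had a repeat peak nearest to them, 1 each. All 10 peaks were higher in mTEC-IV and none lower, with a median log2 change of 3.65, beside 0.19 over all repeat peaks and 0.04 over all merged peaks, and all 10 were called in each of the 17 alternative settings run. Lower were 6 of the 10 in mTEC-I, 5 in mTEC-II and 4 in mTEC-III, with none higher, where 23.1%, 7.23% and 14.2% of all peaks were called lower and 23.5% higher in mTEC-IV. The lower calls in mTEC-II fell to 1 without either mTEC-II library and rose to 8 without the shallow mTEC-I library and under edgeR, and those in mTEC-III fell to 2 without the second mTEC-II, the first mTEC-III or either mTEC-IV library. Without the first mTEC-I library, 2 of the 10 were higher and 7 lower in mTEC-II. The elements belonged to all 4 classes: SINEs at Plcg2, Vav1 and Pou2f3, LTR elements at Plcb2, Alox5ap, Rgs13, Itpr2 and Gnat3, a LINE at Dclk1 and a DNA transposon at Ptgs1.

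For signalling, the LTR78 element in intron 1 of Plcb2, the phospholipase of taste transduction, read 44.9 and 23.5 across mTEC-I, 52.9 and 60.4 across mTEC-II, 23.3 and 45.9 across mTEC-III, and 600.4 and 651 across mTEC-IV (3.96 ± 0.26, adjusted p = 7.6e-07). At Plcg2, a second phospholipase, an RSINE1 element in intron 2 (chromosome 8, 120025812 to 120032602) read 11.6 and 8.81, 32.8 and 32.2, 43.5 and 33.0, and 421 and 425 in the same order (4.12 ± 0.19, adjusted p = 9.7e-08). The LTR48 element in an intron of Itpr2, an inositol trisphosphate receptor, read 202 and 217 in mTEC-IV against 15.2 to 52.6, and MYSERV-int in intron 1 of Gnat3, the G protein gustducin, 52.8 and 59.7 against 0 to 6.96. In each of these the mTEC-IV libraries lay above all others. An ORR1A2-int element 54173 bases from Rgs13, a regulator of G protein signalling, read 247 and 231 against 10.1 to 22.4, and B3A in an intron of Vav1, an exchange factor of immune signalling, 64.3 and 65.7 against 0 to 16.3.

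Of the eicosanoid genes, Alox5ap, which serves leukotriene synthesis, had an MTC element in intron 1 (chromosome 5, 150076365 to 150082849) with 405 and 404 in mTEC-IV against 15.8 to 38.2 (4.01 ± 0.26, adjusted p = 7.1e-07). Ptgs1, a cyclooxygenase, had a MER44D element in an intron with 42.3 and 57.4 against 0 to 14.1. The smallest change was at Pou2f3, the master transcription factor of tuft cells: its MIRb element 3924 bases from the start site read 175 and 162 across mTEC-IV, 128 and 112 across mTEC-I, 65.5 and 92.9 across mTEC-II, and 108 and 97.7 across mTEC-III (0.77 ± 0.15, adjusted p = 0.00131). An L1M5 element 9797 bases from Dclk1, a kinase used as a tuft cell marker, read 50.0 and 58.0 against 2.52 to 6.96. Alox5ap, Plcg2, Vav1 and Rgs13 are also expressed in blood cells, and Ptprc was raised in these libraries as given above.

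**Figure D5:**
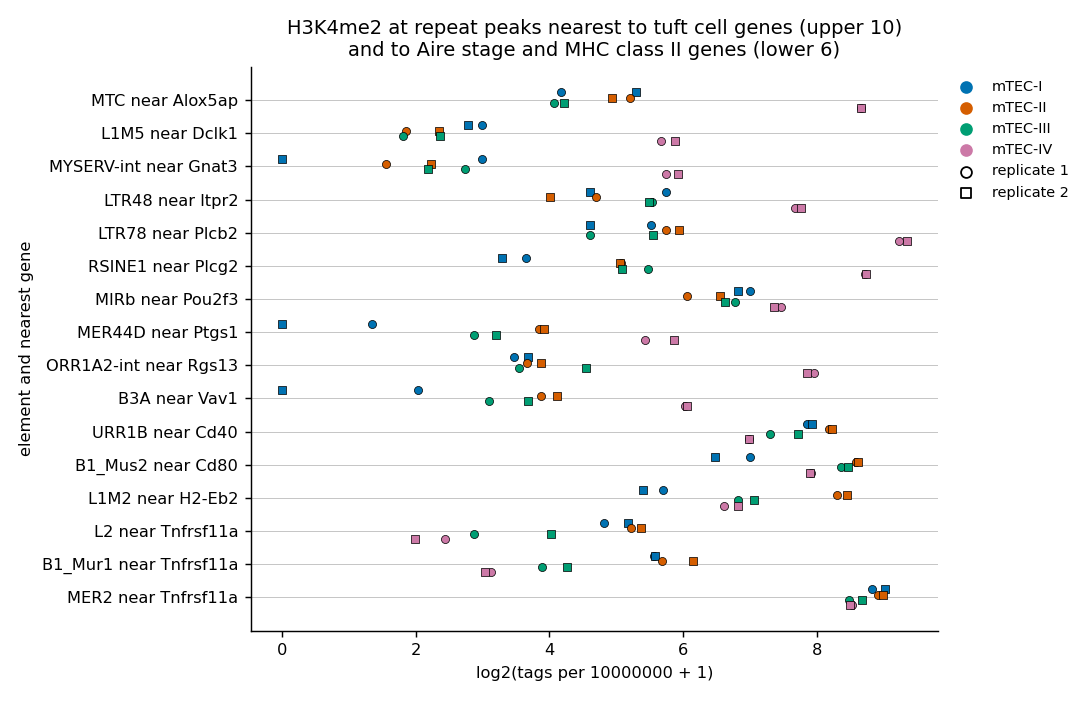
Tags per 10000000 in each library for the repeat peaks nearest to listed genes. The peaks near the 10 tuft cell genes are highest in both mTEC-IV libraries, and those near Cd80 and H2-Eb2 in both mTEC-II libraries.

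For the Aire stage and MHC class II list of 21 genes, 4 genes had 6 repeat peaks. All 6 were higher in mTEC-II, 4 were higher and 2 lower in mTEC-I, 1 was higher in mTEC-III, and 4 were lower and none higher in mTEC-IV. Of all peaks, 10.2% were called higher in mTEC-II, 14.7% higher in mTEC-I and 14.3% lower in mTEC-IV. Cd80, a costimulatory ligand of T cells, had a B1_Mus2 element in intron 1 with 127 and 88.1 across mTEC-I, 383 and 393 across mTEC-II, 329 and 352 across mTEC-III, and 240 and 238 across mTEC-IV (0.92 ± 0.12, adjusted p = 0.00058). Cd40, the receptor for CD40 ligand, had a URR1B element in intron 1 with 290 and 300 in mTEC-II, 231 and 244 in mTEC-I, 156 and 210 in mTEC-III, and 125 in both mTEC-IV libraries (0.75 ± 0.11). The list also holds the H2-Eb2 peak given above. Without the second mTEC-II library 2 of the 6 were called higher in mTEC-II, and 4 without the first. The 4 higher calls in mTEC-I fell to 1 without either mTEC-II library, and to 2 under DESeq2 and without the shallow mTEC-I or either mTEC-IV library.

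Tnfrsf11a, which encodes RANK, the receptor whose ligand drives mTEC maturation, had 3 repeat peaks on chromosome 1. The L2 element 23138 bases upstream read 27.1 and 35.2 across mTEC-I, 36.3 and 40.4 across mTEC-II, 6.31 and 15.3 across mTEC-III, and 4.40 and 2.99 across mTEC-IV. A B1_Mur1 element 4507 bases upstream read 46.4 and 47.0, 50.3 and 70.0, 13.9 and 18.2, and 7.70 and 7.17. At both upstream elements mTEC-I and mTEC-II lay above mTEC-III and mTEC-IV without overlap, and the fall in mTEC-IV was -2.37 ± 0.40 and -2.12 ± 0.27. The MER2 peak in intron 1, which covers the start site, varied far less (358 to 517, -0.31 ± 0.08 in mTEC-IV, adjusted p = 0.0585 and 0.0842 without the first or second mTEC-IV library).

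Of 23 cornified epithelium genes, 5 had 6 repeat peaks, of which 2 were higher in mTEC-III (the B3 near Krt10 and an Lx8 near Spink5) and 1 lower, and 2 were higher and 1 lower in mTEC-IV. In mTEC-I 4 of the 6 were lower and none higher, and in mTEC-II 1 was lower. The shares of all peaks were 11.3% higher in mTEC-III, 23.5% higher in mTEC-IV and 23.1% lower in mTEC-I. The lower call in mTEC-IV, at the Lx8 near Spink5, was lost without the second mTEC-II library, either mTEC-III or either mTEC-IV library. The B3 element 13870 bases from Krt10, a keratin of differentiating epidermis (chromosome 11, 99263248 to 99265848), read 73.2 and 90.7 in mTEC-III, 22.5 and 25.1 in mTEC-IV, and 7.74 to 12.3 in the other 4 libraries (2.51 ± 0.30, adjusted p = 0.00019). Klf4, a transcription factor of barrier epithelium, had an MTEa element 32765 bases away with 208 and 201 in mTEC-IV against 0 to 18.9 (4.50 ± 0.70), and Ehf, an epithelial ETS factor, a B3 element in intron 6 with 64.9 and 51.4 against 4.64 to 7.14 (3.04 ± 0.39). Tgm3 had an MTD element that was lower in mTEC-III (15.8 and 17.1 against 33.0 to 47.0, -1.26 ± 0.24).

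Of 15 basal and junctional genes, Itga6 and Lifr had 1 repeat peak each. Both were higher in mTEC-IV, at 0.68 ± 0.18 and 1.12 ± 0.22, but Itga6 was lost without the first mTEC-IV library (adjusted p = 0.169) and Lifr without the second (0.0511). Among 20 interferon-induced genes 4 had a repeat peak, of which only that of Ifit3 was higher in mTEC-I (background 14.7%), 1 was higher and 1 lower in mTEC-II, and 2 were lower in mTEC-IV (background 14.3%). An Lx8 element 20829 bases from Iigp1, an interferon-inducible GTPase gene, read 51.6 and 45.9 in mTEC-II against 1.19 to 23.5 (2.60 ± 0.61, adjusted p = 0.0135) and 4.95 and 1.19 in mTEC-IV (-2.44, adjusted p = 0.00714). Its rise was lost without either mTEC-II library (adjusted p = 0.187 and 0.158) and its fall without the second mTEC-IV library (0.136). The MER20 near Ifit1 was lower in mTEC-II (18.5 and 32.6 against 40.6 to 53.9), a call that ended without the first mTEC-II library (adjusted p = 0.305). A B3 element near Usp18, a deubiquitinase gene, read 58.8 to 105 in the 8 libraries with adjusted p-values of 0.628 to 0.962.

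Among genes with several repeat peaks, picked after their values were seen, all 3 at Rgs3, a regulator of G protein signalling, were higher in mTEC-I and mTEC-II and lower in mTEC-IV. Its MIRb element in intron 5 read 240 and 182 across mTEC-I, 148 and 151 across mTEC-II, 116 and 102 across mTEC-III, and 29.1 and 31.7 across mTEC-IV, and its B4A element 66.5 and 67.6, 69.4 and 64.4, 24.6 and 31.8, and 10.4 and 18.5. At Rftn1, a lipid raft protein gene, all 3 were higher in mTEC-IV and lower in mTEC-I: RLTR42-int in intron 7 read 107 and 106 in mTEC-IV against 3.10 to 27.4, and MER82 in the same intron 111 and 84.2 against 0 to 36.3. Hivep2, a zinc finger transcription factor gene, had 4 repeat peaks, of which 3 were higher in mTEC-IV, among them a Zaphod element in intron 2 (90.2 and 80.05 against 3.53 to 8.83). Cpm, a carboxypeptidase gene, had 3 of 3 higher in mTEC-IV, Med13l 3 of 3 in mTEC-II and Rfwd2, a ubiquitin ligase gene, 3 of 3 in mTEC-III. The mTEC-II calls at Rgs3 and Med13l ended without either mTEC-II library, and 1 at Rgs3 and 2 at Med13l also without some mTEC-III or mTEC-IV libraries. At Rfwd2, 2 of the 3 calls were lost without the first mTEC-III library (adjusted p = 0.117 and 0.0755), and at Hivep2 the mTEC-IV call of a B1_Mus2 element was lost without either mTEC-IV library (adjusted p = 0.0811 and 0.07).

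Of 16 genes that silence repeats, all had merged peaks, and 4 differed between the populations when their peaks were summed, against 54.2% of the 15738 genes tested. Dnmt3l, a cofactor of the de novo DNA methyltransferases, read 58.8 and 79.3 across mTEC-I, 212 and 215 across mTEC-II, 97.2 and 111 across mTEC-III, and 97.9 and 99.2 across mTEC-IV. It was higher in mTEC-II (1.26 ± 0.14, adjusted p = 2.3e-05; 8.56% of genes were called higher) and lower in mTEC-I (-0.92, adjusted p = 0.00012). Dnmt1, the maintenance methyltransferase, read 258 and 335 across mTEC-I, 209 and 216 across mTEC-II, 257 and 249 across mTEC-III, and 156 and 170 across mTEC-IV, higher in mTEC-I (0.51 ± 0.10; 17.2% of genes were called higher) and lower in mTEC-IV (-0.62 ± 0.10; 12.6% of genes were called lower). Kdm1a, which encodes the H3K4 demethylase LSD1, was higher in mTEC-IV (269 and 252 against 151 to 217, 0.53 ± 0.11; 20.4% of genes were called higher).

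Calls for Suv39h1, an H3K9 methyltransferase (0.57 ± 0.17), and Zfp809, which recruits silencing to retroviral elements (0.36 ± 0.11), as higher in mTEC-I ended without the shallow mTEC-I library (adjusted p = 0.16 and 0.121), and the lower call of Kdm1a in mTEC-II (-0.36 ± 0.11) under both other scalings (adjusted p = 0.102 and 0.0994), under DESeq2 (0.0753), and without either mTEC-II (0.436 and 0.0837), the first mTEC-III (0.0683) or either mTEC-IV library (0.0773 and 0.0556). The corepressor gene Trim28 read 274 to 367 and the H3K9 methyltransferase gene Setdb1 67.4 to 88.1 over the 8 libraries, and neither passed the test in any population (adjusted p = 0.0957 or more). In intron 8 of Kdm1a itself, a B1_Mur2 element (chromosome 4, 136120753 to 136122219) was a repeat peak with 69.3 and 72.3 in mTEC-IV against 3.10 to 17.6 in the other libraries (3.08 ± 0.53, adjusted p = 0.00068).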

How the data were processed

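H3K4me2 was measured in 8 libraries of 4 mTEC populations. The submitters' processing notes name bcl2fastq 2.15.0.4, Picard 1.108 and the mm9 build, while the aligner was not given in the sources used here. Per the file headers, the deposited signal table holds HOMER tags per 10000000 in each merged peak with its annotation, and all values lie within 0.1 tag of a multiple of 0.5. The authors' deposited peak lists give a fold over control per peak, and those values are the authors' own. Of 29472 merged peaks, 2 mitochondrial ones were left out.

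Peaks at 10 or more in at least 2 libraries (29469) were tested with limma 3.58.1 in R 4.3.3 on log2(value + 1), each population against the mean of the other 3, with Benjamini-Hochberg adjustment over all tested peaks, 4 residual and 7.75 prior degrees of freedom. Fold changes on this scale understate those of low peaks, except that falls resting on the shallow mTEC-I library can be overstated. For example, the mTEC-I change of RMER10B near Pitpnc1 was -2.57, but -1.00 under DESeq2 and -0.45 without that library. Gene sums (15738) were fitted likewise. On simulated data, 75% of 2-fold and 99% of 4-fold changes (100 each, mTEC-IV) were recovered with 0 false calls, and 14 false calls arose in mTEC-I. The spread simulated beyond counting error was the same in every library and set below the measured replicate spread. These rates therefore need not hold for the real libraries. Alternatives used edgeR 4.0.16 and DESeq2 1.42.0 on tags recovered from the values with 2 counts per tag, other scalings, filters and pseudocounts, and each library left out. Lists were overlapped with bedtools 2.31.1.

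Named peaks are the 5 largest rises and 3 largest falls per population among called peaks with a mean of at least 30, the first rise of each class by p-value, the highest level of each class and the first peaks of each gene list. The other peaks nearest to listed genes were added. Members and lists were chosen with earlier results of these data known.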

Additional observations from a re-analysis of the deposited data

How the results depend on the processing

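The limits lie in depth and number: 2 libraries a population, and 1 mTEC-I library of 1702100 tags. The direction of the higher and lower counts of all repeat peaks held in every setting run, and the cause of the changes below was not tested. Among 158 named changes, 103 kept direction and side of the threshold in every setting run. Scaled to equal totals in the merged peaks, higher calls made up 78.4% of the calls of repeat peaks in mTEC-II (69.5% as reported) and 58.9% in mTEC-IV (63.8%), and for all peaks 72.6% (58.6%) and 50.5% (62.1%).

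Replicate differences of the populations did not go together over peaks (correlations of -0.013 to 0.016 over 6 pairs). These cannot decide whether libraries of the same number were handled together, as counting error enters every difference. A replicate block gave 200 higher and 897 lower across mTEC-I, 390 and 162 across mTEC-II, and 356 and 265 across mTEC-III. It gave 810 and 452 across mTEC-IV, and 1723 by the F test. In mTEC-II, 615 were higher under DESeq2 and 728 under edgeR, and 323 lower under edgeR and 275 with a pseudocount of 5. In mTEC-III 423 were lower under edgeR. Restricted to members no wider than the median merged peak, fewer members were counted: 123 higher and 598 lower across mTEC-I, 251 and 60 across mTEC-II, 199 and 165 across mTEC-III, and 281 lower across mTEC-IV. Over 5000 bases from a start site, 118 were lower in mTEC-II.

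With 1 library left out at a time, counts ranged from 132 to 278 higher and 752 to 1026 lower across mTEC-I, 50 to 715 and 27 to 420 across mTEC-II, 127 to 581 and 74 to 540 across mTEC-III, 564 to 971 and 286 to 588 across mTEC-IV, and 1405 to 2037 by the F test. Shares of the in-peak signal then ranged, in mTEC-I to mTEC-IV, over 0.666 to 0.668, 0.879 to 0.879, 0.819 to 0.819 and 1.03 to 1.04% for LINEs, 2.01 to 2.03, 2.30 to 2.30, 2.33 to 2.34 and 2.41 to 2.44% for SINEs, 0.948 to 0.963, 1.24 to 1.25, 1.18 to 1.19 and 1.30 to 1.31% for LTR elements, and 0.280 to 0.30, 0.344 to 0.344, 0.318 to 0.324 and 0.357 to 0.371% for DNA transposons.

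Fewer members also lower the shares. Over 5000 bases from a start site they were, in mTEC-I to mTEC-IV, 0.424, 0.610, 0.511 and 0.788% for LINEs, 0.851, 1.15, 1.05 and 1.29% for SINEs, 0.731, 0.986, 0.907 and 1.02% for LTR elements, and 0.131, 0.176, 0.146 and 0.193% for DNA transposons. For narrow members they were 0.280, 0.394, 0.322 and 0.494%, 0.421, 0.557, 0.495 and 0.593%, 0.499, 0.643, 0.586 and 0.652%, and 0.0844, 0.111, 0.0978 and 0.139%. For members that do not reach the nearest start site, an alternative chosen after seeing the data, they were 0.455, 0.656, 0.556 and 0.841%, 0.907, 1.21, 1.11 and 1.34%, 0.786, 1.06, 0.965 and 1.09%, and 0.146, 0.196, 0.167 and 0.220%. The lists of mTEC-I to mTEC-IV held the centre of 4.29, 58.9, 37.2 and 54.5% of the members, and 3.41, 20.7, 13.3 and 20.1% overlapped a listed peak with at least the median fold over control.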
